A study of Zea mays with 6 samples.

Results

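The genes described are those selected as the barren stalk genes of maize, which are needed to start axillary meristems. They are 3 of the 39305 genes in the deposited table and were chosen by identifier: ba1 (barren stalk1, GRMZM2G397518), baf1 (barren stalk fastigiate1, GRMZM2G072274) and GRMZM2G165042. The last was selected under the name ba2 (barren stalk2), but the RefSeq table of maize genes gives that identifier the synonym PIF5, the name of a phytochrome-interacting factor, and holds 0 entries named ba2. It is therefore called by its identifier, and its values are not taken as those of ba2. Transcripts were measured in young tassels, the male inflorescence, 2 to 4 mm long, from greenhouse plants in the inbred background B73. The 2 groups were Bif1;Bif4 double heterozygotes, with 3 libraries of 10 pooled tassels, and wildtype plants, with 3 libraries of 5 pooled tassels. Bif1 and Bif4 are dominant mutations, carried throughout the plant, in Aux/IAA proteins, the repressors of auxin response. Whether the pools of a group came from separate plantings or harvests is not in the labels, and the p-values therefore speak only of the spread among pools.

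Branches and spikelets of a tassel arise from axillary meristems, groups of stem cells set aside along the flank of the inflorescence. BA1 is a basic helix-loop-helix protein, the maize counterpart of rice LAX PANICLE1, that acts at the boundary next to each new meristem, and plants without it form almost no branches, spikelets or ears. BAF1 is a DNA-binding protein with an AT-hook motif, whose loss removes ears and leaves tassel branches upright. In earlier maize work, Aux/IAA repressors such as BIF1 and BIF4 and the auxin response factors they bind were placed upstream of ba1. The comparison of the 2 genotypes asks how these transcripts stand in tassels that carry both dominant repressors.

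Summed over the genes of the deposited table, the libraries held 23066609 to 23431863 reads in Bif1;Bif4 and 21047225 to 24636859 in wildtype. A normalized count is a read count that the authors divided by a size factor for its library. A level of 3 reads, taken here as the most that a 0 allows, is worth 2.75 to 3.30 normalized counts. Wildtype replicate 2 lay far from the other 5 libraries along the second principal component (24.4% of the variance), so results are also given without it. Of 4 genes that mark tassel meristems, 3 fell (ids1, zfl1 and TD1), where 2.91% of all tested genes fell (limma, adjusted p under 0.05). The other was kn1, a homeobox gene of meristem and stem tissue. It was at 7247 ± 566 normalized counts in Bif1;Bif4 and 8969 ± 317 in wildtype (SD, n = 3 each). Its log2 difference of -0.31 did not pass (limma adjusted p = 0.073). The summed level of the 4 was 8155 to 9693 in Bif1;Bif4 and 12069 to 12983 in wildtype, and kn1 made up most of it. Of 23 genes matched by symbol as leaf photosynthesis markers, some of doubtful identity, 12 were tested and 2 were at 0 in all 6 libraries. With limma, limma-voom, edgeR and DESeq2 alike 0 passed, and 1 had an unadjusted p under 0.05. Their summed level was 2714 to 3104 normalized counts in Bif1;Bif4 and 2345 to 2705 in wildtype. The largest parts of that sum were psat1, at a mean of 956 in Bif1;Bif4 and 965 in wildtype, and Pep1 (GRMZM5G899080), at 719 and 574. Both were matched by symbol alone, so the sum is not a measure of leaf tissue. The part of these markers in the results below was not tested, and in pooled tissue fewer cells of a type and less RNA per cell cannot be told apart.

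Transcripts of ba1 were nearly absent from double heterozygous (Bif1;Bif4) tassels. In Bif1;Bif4 replicates 1 to 3 the gene had 6, 0 and 7 reads, or 5.83, 0 and 6.85 normalized counts. In wildtype replicates 1 to 3 it had 381, 331 and 481 reads, or 419, 303 and 496 normalized counts. The highest double heterozygous library thus lay far below the lowest wildtype library, and the groups did not overlap, which held in this direction for 14.2% of the 21924 genes tested. The mean was 4.23 ± 3.70 normalized counts in Bif1;Bif4 and 406 ± 97.3 in wildtype (SD, n = 3 each), so that double heterozygous tassels held 1.04% of the wildtype level. Over all reads there were 13 in Bif1;Bif4 and 1193 in wildtype, a rate of 1.05% of wildtype with an exact 95% interval from 0.559% to 1.81% that covers counting error only. The log2 fold change of Bif1;Bif4 over wildtype was -6.73 (SE 0.79, limma adjusted p = 0.0090), on the log2(normalized count + 1) scale, where the values of low libraries depend on the 1 that was added.

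Transcripts of baf1 were nearly absent from double heterozygous tassels as well. The gene had 7, 3 and 8 reads in Bif1;Bif4 replicates 1 to 3, or 6.80, 2.98 and 7.83 normalized counts. It had 247, 241 and 390 reads in wildtype replicates 1 to 3, or 272, 221 and 402 normalized counts. Each double heterozygous library again lay below each wildtype library, and the second double heterozygous library lay at the level of 3 reads. The mean was 5.87 ± 2.55 normalized counts in Bif1;Bif4 and 298 ± 93.7 in wildtype (SD, n = 3 each), which is 1.97% of the wildtype level. Summed over libraries, 18 reads in Bif1;Bif4 stood against 878 in wildtype, a rate of 1.98% with an exact 95% interval from 1.17% to 3.15%. The log2 fold change was -5.48 (SE 0.37, limma adjusted p = 0.00038).

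**Figure D1:**
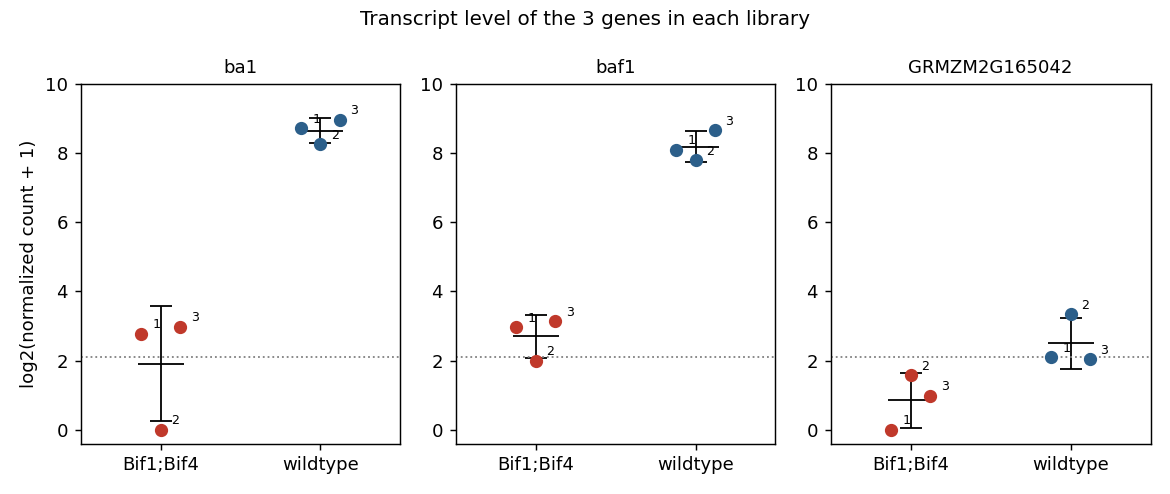
Level of ba1, baf1 and GRMZM2G165042 in each library, as log2(normalized count + 1), with Bif1;Bif4 (red) left of wildtype (blue). Numbers beside points are replicate numbers, bars are the mean with the SD of 3 libraries on this scale, and the dotted line is the level of 3 reads in the library where a read counts most. For ba1 and baf1 the groups lie far apart, with the double heterozygous libraries near the dotted line. For GRMZM2G165042 both groups lie near it.

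Genes that fell made up 2.91% of those tested and genes that rose 2.13% (limma, adjusted p under 0.05), and 2 of the 3 selected genes fell. The third, GRMZM2G165042, was not tested, since it did not reach 10 normalized counts in any library. By log2 fold change ba1 ranked 2 and baf1 ranked 8 from the most negative among the 21924 genes. Both passed the filter on low values through the wildtype libraries alone. With no filter on low values, over 30299 genes, they were also called (limma adjusted p = 0.011 for ba1 and 8.4e-05 for baf1), where 2.26% of genes fell. The edgeR test on the recovered reads gave log2 fold changes of -6.54 for ba1 and -5.64 for baf1, with adjusted p = 0.0021 and 0.00048, and called 2.87% of genes as fallen.

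**Figure D2:**
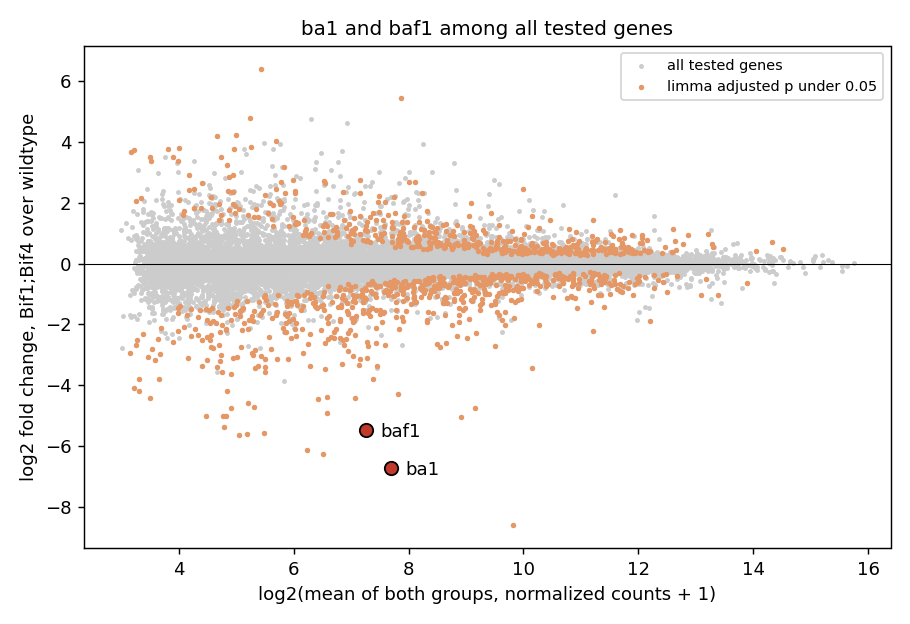
Each point is 1 of the 21924 tested genes, placed by log2 of its mean normalized count over both groups plus 1 (horizontal) and by its log2 fold change of Bif1;Bif4 over wildtype (vertical), with genes at a limma adjusted p under 0.05 in orange. The red points of ba1 (-6.73) and baf1 (-5.48) lie near the lower edge of the plot, among genes of moderate mean level.

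The size of the fall of ba1 rests in part on a single library, because Bif1;Bif4 replicate 2 held 0 reads. Without that library the log2 fold change of ba1 was -5.77 (SE 0.27, limma adjusted p = 0.00061) and that of baf1 was -5.13 (SE 0.30, adjusted p = 0.00066). Without wildtype replicate 2 the log2 fold changes were -6.92 for ba1 and -5.67 for baf1 (limma adjusted p = 0.017 and 0.00040), in a fit that called 2.86% of genes as fallen and 3.54% as risen. With a pseudocount of 5 in place of 1 they were -5.55 and -4.79. The call held for both genes in each of these settings.

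The authors' deposited table gives smaller log2 fold changes for the same libraries. It lists -3.89 (SE 0.22) for ba1, with an adjusted p of 6.95e-67, and -3.32 (SE 0.22) for baf1, with an adjusted p of 4.11e-46. By p-value the deposited table ranks ba1 4 and baf1 9 among 30200 genes. The log2 ratio of the group means of the normalized counts, with no pseudocount, was -6.59 for ba1 and -5.67 for baf1. DESeq2 run here on the recovered reads gave -6.58 (SE 0.48) for ba1 and -5.67 (SE 0.45) for baf1. How the deposited fold changes were estimated is not given in the sources used here.

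Among the wildtype libraries both genes varied moderately, with a coefficient of variation of 24.0% for ba1 and 31.4% for baf1. Both were highest in replicate 3 and lowest in replicate 2. In Bif1;Bif4 both were also highest in replicate 3 and lowest in replicate 2, although there the libraries 1 and 3 differed by a single read. The order of all 6 libraries was therefore the same for ba1 and baf1. This order was seen in 81 of the 21924 tested genes, ba1 and baf1 included, or 2.59% of the 3122 genes that were lower in every double heterozygous library.

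The balance between ba1 and baf1 can be read within a library, where it does not depend on scaling. Of the reads of both genes together, ba1 held 46.2%, 0% and 46.7% in Bif1;Bif4 replicates 1 to 3, out of 13, 3 and 15 reads, and the 0% allows up to 70.8% by its exact 95% interval. It held 60.7%, 57.9% and 55.2% in wildtype replicates 1 to 3. The mean share was 30.9% ± 26.8 in Bif1;Bif4 and 57.9% ± 2.72 in wildtype (SD, n = 3 each), and the groups did not overlap. An exact two-sided permutation test gave p = 0.10, the smallest it can give with 3 libraries against 3. Over the summed reads the share was 41.9% in Bif1;Bif4, with an exact 95% interval from 24.5% to 60.9%, and 57.6% in wildtype, with an interval from 55.4% to 59.7%. With 31 reads in double heterozygotes and a test that could not pass at this number of libraries, whether the 2 genes fell to different extents was not settled. Without Bif1;Bif4 replicate 2 the difference of the mean shares was -11.5 percentage points, against -27.0 with all libraries.

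GRMZM2G165042 was close to the limit of detection in both genotypes. It had 0, 2 and 1 reads in Bif1;Bif4 replicates 1 to 3, or 0, 1.99 and 0.98 normalized counts. It had 3, 10 and 3 reads in wildtype replicates 1 to 3, or 3.30, 9.15 and 3.09 normalized counts. The groups did not overlap, but the highest double heterozygous library and the lowest wildtype libraries were a single read apart. Of the 21924 tested genes, which leave this gene out, 14.2% were lower in every double heterozygous library. Most of the wildtype reads came from replicate 2, the library that stood apart. The summed reads were 3 in Bif1;Bif4 and 16 in wildtype, a rate of 18.1% of wildtype with an exact 95% interval from 3.38% to 63.3%. With no filter on low values, its log2 fold change was -1.64 (SE 0.57) and did not pass (limma adjusted p = 0.16). The authors' deposited table lists a log2 fold change of -0.22 (SE 0.15), a p of 0.137 and no adjusted p for it. The counting interval lies below the wildtype rate, while the test over libraries did not pass, so a difference between the genotypes was not established for this gene.

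The genes whose levels ran most like ba1 and baf1 were sought among 2023 tested genes with a symbol, by Pearson r over the 6 libraries on the log2(normalized count + 1) scale. The libraries form 2 groups that are far apart for both genes, so a gene that is lower in every double heterozygous library can reach a high r whatever the size of its change. Of all other tested genes, 951 (4.34%) had an r of at least 0.9 with ba1 and 976 (4.45%) with baf1. The r between ba1 and baf1 was 0.99, which placed baf1 at rank 30 among all tested genes for ba1.

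For ba1 the 3 most like genes were BAD1 (branch angle defective1, a TCP factor of tassel branch angle), GLK47 and MADS36, each with an r of 0.99. BAD1 had 30.1, 17.9 and 47.9 normalized counts in Bif1;Bif4 replicates 1 to 3 and 303, 303 and 339 in wildtype replicates 1 to 3. It was therefore also lowest in Bif1;Bif4 replicate 2 and highest in replicate 3, an order within Bif1;Bif4 seen in 18.9% of tested genes. In wildtype BAD1 was nearly equal in replicates 1 and 2, whereas ba1 was lowest in replicate 2. For baf1 the most like genes were GLK47 (r = 0.998), MADS36 (r = 0.996) and GPDH5 (r = 0.992). GLK47 averaged 545 ± 64.0 normalized counts in Bif1;Bif4 and 1299 ± 70.9 in wildtype (SD, n = 3 each). MADS36 averaged 2042 ± 355 in Bif1;Bif4 and 7409 ± 285 in wildtype, and GPDH5 averaged 172 ± 3.66 in Bif1;Bif4 and 253 ± 10.8 in wildtype. The log2 fold changes were -3.36 for BAD1, -1.26 for GLK47, -1.87 for MADS36 and -0.56 for GPDH5 (limma adjusted p = 0.0016, 0.00071, 0.00042 and 0.032). These genes were picked by r over the same libraries, so passing this test is no separate support. Their changes were nearer to 0 than those of ba1 and baf1, as were those of nearly all tested genes (baf1 ranked 8 of 21924). For GRMZM2G165042 the rule named gln1 (r = 0.99), plt1 (r = 0.98) and dnp1 (r = 0.98), none of which passed the test (limma adjusted p = 0.071, 0.10 and 0.18). With at most 10 reads in a library, that likeness is that of a sparse count.

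**Figure D3:**
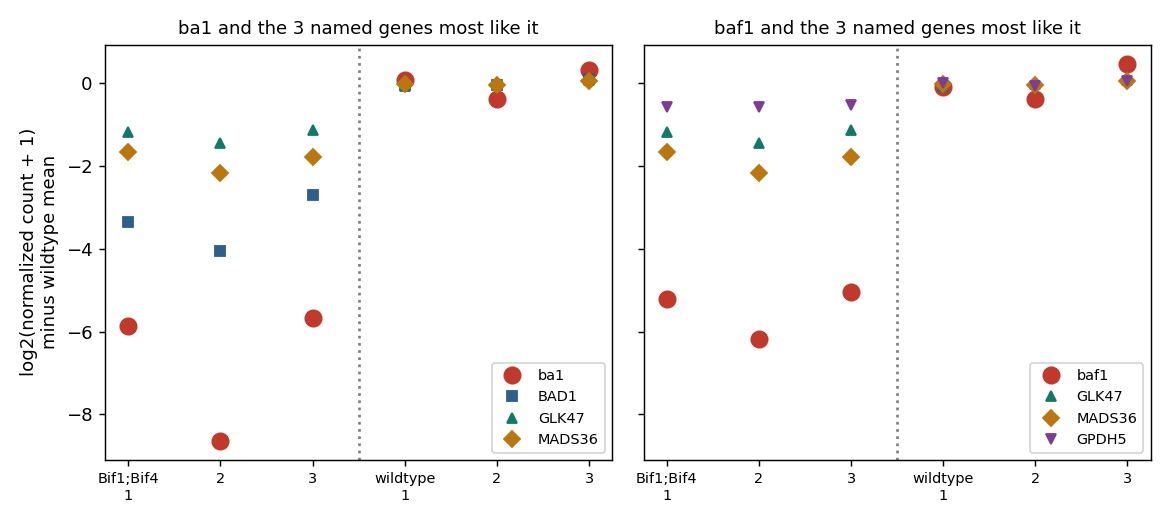
Level of ba1 (left) and baf1 (right) and of the 3 named genes most like each, in every library, as log2(normalized count + 1) minus the wildtype mean of that gene. The dotted line separates Bif1;Bif4 from wildtype. The like genes share the drop in double heterozygotes but lie nearer to 0 there than ba1 and baf1.

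Around ba1 and baf1, a list of 17 genes of inflorescence branching and auxin action was counted in the same fit. All 17 were tested, of which 10 fell, 0 rose and 7 did not pass (limma), with a median log2 fold change of -1.39, beside 0.0055 over all tested genes, of which 2.91% fell and 2.13% rose. The list was chosen with earlier results of these data known. At an unadjusted limma p under 0.05, 11 of the list were lower and 3 higher in Bif1;Bif4. The share of all tested genes at that unadjusted p was not counted. On the recovered reads DESeq2 called 2 of the list as risen and 11 as fallen, beside 4.57% and 5.1% of the genes it tested. On the same reads edgeR called 0 as risen and 10 as fallen, and limma-voom 0 and 9, beside 2.87% and 2.5% of all genes that fell with each. The list holds the mutated genes BIF1 and BIF4. Of the 15 others, 9 fell and 0 rose.

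In the part of the list that acts in auxin response and synthesis, the log2 fold changes lay nearer to 0 than those of ba1 and baf1. Nearly all tested genes did so, since baf1 ranked 8 from the most negative of 21924. The mutated repressor gene BIF1 fell by 1.94 on the log2 scale (SE 0.21), while BIF4 was at -0.77 (SE 0.22) and did not pass (limma adjusted p = 0.086), although DESeq2 called it as fallen (adjusted p = 0.020). The gene bif2 encodes a protein kinase of the PINOID type that can phosphorylate BA1. It had 30.8 to 47.9 normalized counts in Bif1;Bif4 and 74.3 to 144 in wildtype and fell by 1.39 (SE 0.29, limma adjusted p = 0.036). That call was lost without any single library other than wildtype replicate 2 (adjusted p from 0.0501 to 0.12), and with limma-voom on the reads (adjusted p = 0.057). The auxin synthesis gene spi1 was at 174 ± 52.2 normalized counts in Bif1;Bif4 and 167 ± 23.4 in wildtype, and the efflux carrier gene PIN1a at 2797 ± 611 in Bif1;Bif4 and 3485 ± 111 in wildtype (SD, n = 3 each). Neither passed (limma adjusted p = 0.97 and 0.25).

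Of the 9 branching genes with a name, 5 fell and 4 did not pass, where 2.91% of all tested genes fell. Like ba1 and baf1, ra3, ra1 and bd1 passed the filter on low values through the wildtype libraries alone. With no filter they were also called (limma adjusted p = 9.7e-06, 0.00093 and 0.0043). The gene ra3, which encodes a trehalose phosphate phosphatase, had 1.96 to 4.86 normalized counts in Bif1;Bif4 and 1129 to 2279 in wildtype, a log2 fold change of -8.61 (SE 0.34). The zinc finger gene ra1 had 0 to 4.86 normalized counts in Bif1;Bif4 and 125 to 230 in wildtype, a log2 fold change of -6.26 (SE 0.62). For ra1 it was -6.94 without Bif1;Bif4 replicate 1 and -5.66 without Bif1;Bif4 replicate 3. With a pseudocount of 5 the log2 fold changes of ra3 and ra1 were -7.67 and -4.74.

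The AP2/ERF gene bd1 had a single read in Bif1;Bif4, in replicate 3, and 29, 125 and 16 reads in wildtype replicates 1 to 3, so that most of its wildtype reads came from replicate 2. Its summed reads were 1 in Bif1;Bif4 and 170 in wildtype, a rate of 0.568% of wildtype with an exact 95% interval from 0.0143% to 3.21%. It was called with limma at a log2 fold change of -5.01 (SE 0.73, adjusted p = 0.0089), but the size depended on the method. The value was -6.93 with edgeR, -7.28 with DESeq2, -5.87 with limma-voom, -5.80 with a pseudocount of 0.5 and -3.10 with one of 5, and the log2 ratio of the group means was -7.38. It was -4.26 without wildtype replicate 2 and -5.62 without wildtype replicate 3. The other branching genes that fell were BAD1 and the bZIP gene lg2, the last at -2.50 (SE 0.30).

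The corepressor gene rel2, which encodes a TOPLESS-type partner of Aux/IAA proteins, was at 17221 ± 258 normalized counts in Bif1;Bif4 and 14897 ± 1282 in wildtype (SD, n = 3 each) and did not pass (limma adjusted p = 0.21). The SBP genes ub2, ub3 and sbp6 did not pass either, at log2 fold changes of 0.80, 1.11 and -0.19. Without wildtype replicate 2 ub3 rose (limma adjusted p = 0.032), and without wildtype replicate 3 ub2 rose (adjusted p = 0.028).

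The 3 genes of the list that the RefSeq table does not name, AC233943.1_FG002, GRMZM2G127308 and GRMZM2G074267, fell, with log2 fold changes of -3.35, -1.57 and -0.75. The call of GRMZM2G074267 was lost without Bif1;Bif4 replicate 2, Bif1;Bif4 replicate 3 or wildtype replicate 3 (limma adjusted p from 0.063 to 0.080).

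**Figure D4:**
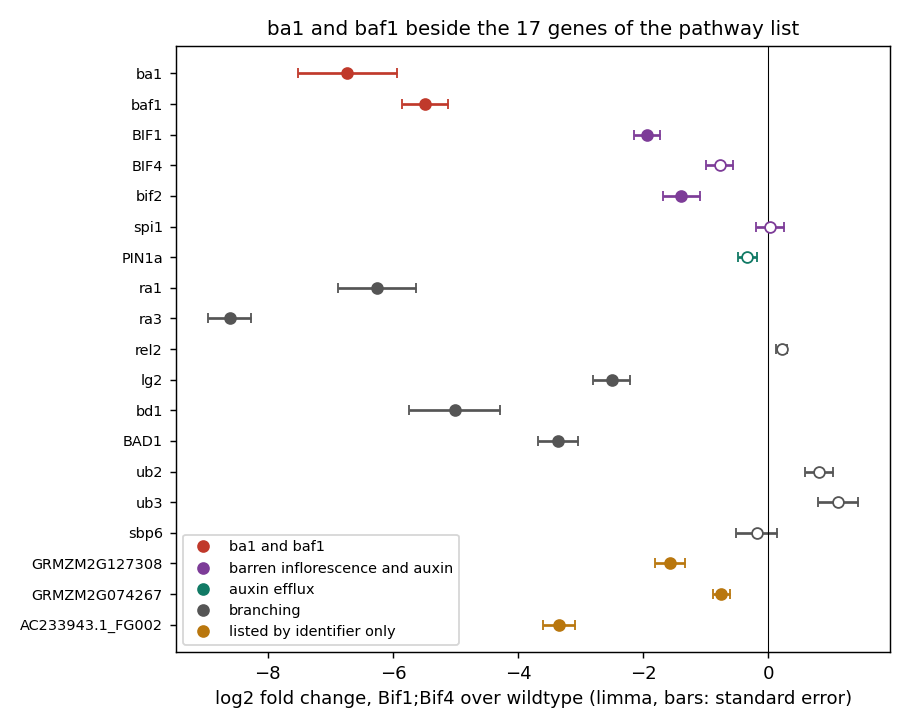
Log2 fold change of Bif1;Bif4 over wildtype (horizontal, limma, bars show the standard error) for ba1, baf1 and the 17 genes of the list, coloured by role, with filled points for genes at an adjusted p under 0.05 and open points for the others. The points of ba1, baf1, ra1, ra3 and bd1 lie at -5 or below, and no filled point lies above 0.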

How the data were processed

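Messenger RNA was measured in 3 libraries of Bif1;Bif4 double heterozygous tassels and 3 of wildtype tassels. The submitters' processing notes name Trimmomatic, TopHat2 (2.1.1), HTSeq and DESeq2, without settings, genome build or strandedness. The deposited table lists read counts after division by a size factor per library, a step the authors made, and these values were handled as a normalized signal. The same deposited table lists the authors' log2 fold changes, standard errors, Wald statistics (a score) and p-values, raw and adjusted. Within 1e-06 reads, 100.0% of the values in each column were multiples of 1 step, and dividing by it gave the reads.

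Genes with 10 or more normalized counts in 3 or more libraries were tested with limma 3.58.1, using trended, robust variances, on log2(normalized count + 1), and p-values were adjusted by Benjamini-Hochberg. The fit was tested on simulated data, with changes smaller than the falls of ba1 and baf1. That test did not cover falls to levels as low as those of ba1 and baf1 in Bif1;Bif4. A 0 was taken to allow up to 3 reads, which is a fixed setting and not one of the exact intervals. Intervals are exact 95% ones and cover counting error only. Alternatives were edgeR 4.0.16, DESeq2 1.42.0 and limma-voom on the reads, median-centring, other pseudocounts and filters, the replicate number as a block, and leaving out each library with the tested genes kept. R 4.3.3 and Python 3.11.15 were used.

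The named genes are the selected genes, a list of 17 inflorescence branching and auxin genes, and the 3 genes with a symbol most like each selected gene by Pearson r. Members and lists were chosen with earlier results of these data known. Symbols came from RefSeq (assembly Zm-B73-REFERENCE-NAM-5.0), which matched 3 of the 3 selected identifiers and 14 of the 17. Sequences were not used here, and no coordinates are printed, because the build behind the identifiers is not stated.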

Additional observations from a re-analysis of the deposited data

How the results depend on the processing

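All alternatives were run as planned. The falls of ba1 and baf1 kept their direction and their call in all 16 alternatives, at log2 fold changes from -7.25 to -5.55 for ba1 (adjusted p up to 0.035) and from -5.70 to -4.79 for baf1 (adjusted p up to 0.0087). GRMZM2G165042, which was not tested, had a difference of mean log2 values of -1.64, which was -0.73 with a pseudocount of 5 and ran from -2.00 to -1.21 without single libraries. Count models and the other fits on filtered genes gave no value for it. DESeq2 called 1001 risen and 1117 fallen genes against 467 and 637 with limma, and 2 risen genes of the list, ub2 and ub3, against 0. The cause was not tested. With single libraries left out, and so fewer samples fitted, limma called from 167 to 776 genes as risen, from 282 to 627 as fallen, and 0 to 1 genes of the list as risen. The log2 fold changes of spi1 (0.02) and sbp6 (-0.19) changed sign when libraries were left out, with values from -0.20 to 0.24 for spi1 and from -0.53 to 0.083 for sbp6, none of which passed. The replicate block left ba1 and baf1 called (adjusted p = 0.0040 and 0.00059), with 381 risen and 429 fallen genes, and ended the calls of bif2 (0.072) and GRMZM2G074267 (0.059). Across genes, the deviations from the group means of libraries with the same number had correlations of 0.069, -0.17 and -0.030, so the numbers were not taken as pairs. Depth limits the level of ba1 and baf1 in Bif1;Bif4, at 0 to 8 reads a library, and of GRMZM2G165042 in both genotypes.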
